A study of Drosophila melanogaster with 12 samples.

Results

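The late response of Drosophila ML-DmBG3 (BG3) cells to loss of cohesin or of its loader was measured at days 4 and 6 of RNAi. BG3 is a cell line derived from the larval central nervous system. Cells took up dsRNA (double-stranded RNA) to Rad21, a cohesin subunit, or to Nipped-B, and mock-treated cells received 0 µg of dsRNA. Of the 12 arrays of the study, 6 belong to these days: 2 Mock, 2 Rad21 RNAi and 2 Nipped-B RNAi, with 1 array of each treatment per day. Both knockdowns received 10 µg of dsRNA, whereas the knockdown arrays of day 3 came from cells given 40 µg. In most of its experiments the study mixed 2 dsRNAs to a target in equal amounts. No mock culture carried a control dsRNA, so the effect of losing the target and that of taking up dsRNA cannot be told apart here. The comparison set the 4 knockdown arrays together against the 2 Mock arrays with the day as a block. Non-control probe sets entered it if 2 or more of the 6 arrays reached log2 4. These were 7288 of 18769 probe sets and stood for 5887 named genes.

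Cohesin is a ring of Smc1, Smc3, Rad21 and SA that holds sister chromatids together and also binds active genes in interphase, and Nipped-B, with its partner Mau2, puts the ring onto chromosomes. Polycomb group proteins keep developmental genes silent through trimethylation of histone H3 (H3K27Me3), and trithorax group proteins oppose them. E(spl)-C, the Enhancer of split gene cluster, which encodes mostly basic helix-loop-helix repressors that answer to Notch, and the neighbouring homeobox genes invected and engrailed are the regions the study followed because cohesin and H3K27Me3 lie on both in these cells.

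The dsRNA is the reagent that defines the groups. The gene-specific parts of the primers for both Rad21 dsRNAs, 5′ to 3′ and in lower case throughout because no base is singled out, are given without the promoter tail that precedes each. Rad21 is the gene vtd, on chromosome arm 3L.
Rad21 dsRNA 1, forward primer: ctggttggcagcacattggg
Rad21 dsRNA 1, reverse primer: gcatatcagcatgggcgtcc
Rad21 dsRNA 2, forward primer: tgggtgacgattttaatcaaggag
Rad21 dsRNA 2, reverse primer: cgcctgttttctggaatttcctg

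The knockdown was not checked on the arrays. The probe set of Nipped-B lay between 2.28 and 2.29 (log2) on all 6 arrays, which is background, and vtd was not analysed here. The arrays were alike in scale, with medians of the tested probe sets between 9.34 and 9.41. Of the markers of neural tissue, the pan-neuronal elav lay at 7.79 and 9.12 in Mock cells and the glial moody between 12.8 and 13.1, but 16 of 19 neuronal markers with a probe set of their own, brp and nSyb among them, were under log2 4 on all 6 arrays, as were 13 of 17 neuroblast markers.

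Both knockdowns together changed about as many transcripts as they left without a call. With the Benjamini-Hochberg adjusted p of at most 0.1 used throughout (limma), 3841 of the 7288 probe sets were called (52.7%), 2220 of them raised (30.5%) and 1621 lowered (22.2%). By gene, 1761 of 5887 were raised (29.9%) and 1355 lowered (23.0%), and these shares are the background for the counts from all 6 arrays given below. Without the Mock array of day 6, 13.6% of genes were raised and 14.3% lowered, without that of day 4, 21.6% and 13.7%, and without the Nipped-B array of day 6, 21.6% and 18.2%, and counts given without one of these arrays are to be read against its shares. Most changes were small. The median increase was 1.34-fold and the median decrease 1.40-fold. Only 145 genes were raised 2-fold or more (2.46%) and 162 lowered 2-fold or more (2.75%). At 8-fold or more, 19 probe sets were raised and 8 lowered. These counts by fold are of the deposited values, including those under log2 4. The 4 knockdown values lay wholly above or wholly below both Mock values for 3563 probe sets (48.9%). The count of calls rested in part on the Mock arrays: without the Mock array of day 6, 1020 probe sets were raised and 993 lowered, and without that of day 4, 1582 and 992.

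**Figure D1:**
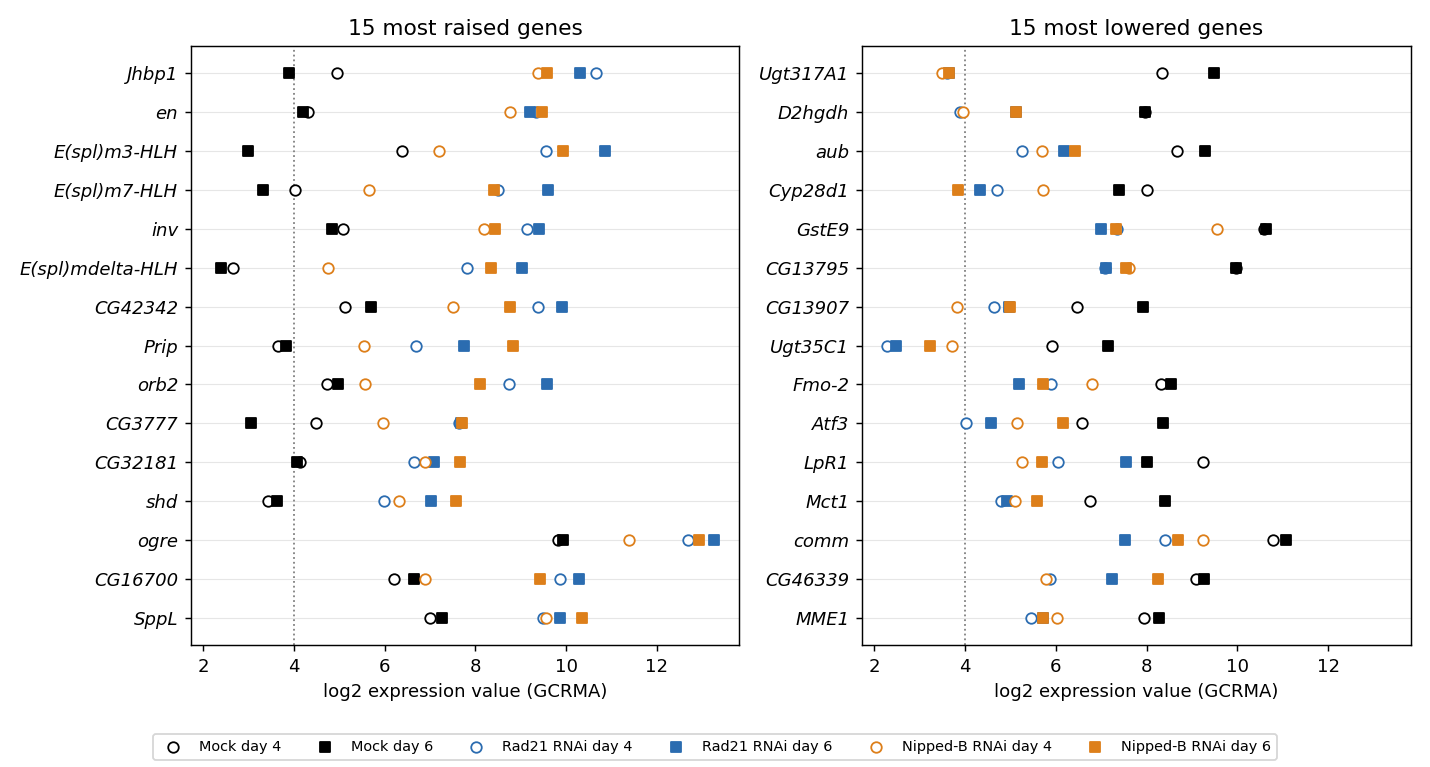
Log2 expression value on each of the 6 arrays (x axis) for the 15 most raised and the 15 most lowered genes (y axis, ordered by the difference with values under log2 4 set to 4, the dotted line); open circles are day 4, filled squares day 6. In both panels the 4 knockdown values of each gene lie on one side of both Mock values. For many of the raised genes the Nipped-B array of day 4 is the knockdown array closest to Mock. Examples are Jhbp1, en, inv, Prip, orb2, ogre, CG16700 and the E(spl) genes mdelta, m7 and m3.

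Invected and engrailed rose together on every knockdown array. engrailed (en), a homeobox repressor of the posterior compartment, had log2 values of 4.31 and 4.20 in Mock cells at days 4 and 6, 9.33 and 9.20 after Rad21 RNAi, and 8.76 and 9.47 after Nipped-B RNAi. That is 30.6-fold (log2 difference 4.94 ± 0.19, standard error, adjusted p = 0.000988). The paralog invected (inv), which shares much of the control region of engrailed, went from 5.07 and 4.84 to 9.15 and 9.40 after Rad21 RNAi and to 8.19 and 8.42 after Nipped-B RNAi, or 14.3-fold (log2 3.84 ± 0.36, adjusted p = 0.00177). The knockdown arrays of both genes were several log2 units apart from Mock and close to each other. Both genes stayed called when any of the 6 arrays was left out.

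Of the E(spl)-C genes, 4 of the 5 tested rose, unevenly. Of its 12 genes, 10 had their own probe set and 5 passed the filter, with none lowered. Of the 5, 3, mdelta, mbeta and malpha, were under log2 4 on both Mock arrays and so passed the filter only through knockdown arrays. The others, m7 and m3, were under log2 4 on the Mock array of day 6 and also needed a knockdown array to pass. The count is therefore no support for a rise of the complex, and the values are given as a description. E(spl)mdelta-HLH, a basic helix-loop-helix repressor, was under log2 4 in Mock cells on both days (2.66 and 2.40) and reached 7.82 and 9.02 after Rad21 RNAi, and 4.75 and 8.34 after Nipped-B RNAi, at least 11.2-fold higher (adjusted p = 0.00938). E(spl)m7-HLH went from 4.01 and 3.32 to 8.51 and 9.61 after Rad21 RNAi and 5.65 and 8.41 after Nipped-B RNAi, 16.4-fold with values under log2 4 set to 4 (adjusted p = 0.0133). In each of them the Nipped-B array of day 4 was the lowest of the knockdown arrays and still above both Mock arrays.

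E(spl)m3-HLH had Mock values of 6.39 at day 4 and 2.99 at day 6, against 9.55 and 10.9 after Rad21 RNAi and 7.20 and 9.93 after Nipped-B RNAi (log2 difference 4.19, or 18.3-fold, with values under log2 4 set to 4, adjusted p = 0.0271 on the deposited values). Its Mock level thus fell from 6.39 to background between the days, and its knockdown levels rose where the Mock level fell. E(spl)mbeta-HLH, the weakest of the called repressors, went from 3.91 and 3.47 to between 4.89 and 7.0 (adjusted p = 0.0143). E(spl)malpha-BFM, a gene of the Bearded family, was under log2 4 in Mock cells, lay at 3.42 and 5.29 after Rad21 RNAi and at 2.77 and 4.77 after Nipped-B RNAi, and was not called (adjusted p = 0.171). None of the 4 called genes kept its call without the Mock array of day 6, where their differences were between 1.59 and 3.63 and their adjusted p between 0.117 and 0.237. In the 4 pairs of a knockdown array with the Mock array of its day, the median over the complex was 3.16 for Rad21 and 0.98 for Nipped-B at day 4, and 6.29 and 5.09 at day 6. These medians and the differences between 1.59 and 3.63 are of the deposited values and are not sizes. Every tested gene of the complex was under log2 4 in Mock cells at day 6, and mdelta, mbeta and malpha also at day 4.

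The genes next to both complexes did not follow them as a block. Of the 20 nearest tested genes around the E(spl)-C, 10 on either side, 6 were raised and 8 lowered, with a median log2 difference of -0.11. The leading one was SppL, a signal peptide peptidase-like protease, which went from 6.99 and 7.26 in Mock cells to between 9.48 and 10.4, 6.44-fold (adjusted p = 0.00102). groucho (gro), the corepressor that the E(spl) proteins recruit and the first gene beyond the complex, rose by 0.92 ± 0.10. LpR1, a lipoprotein receptor gene 7 tested genes away on the side of SppL, fell by 2.49 ± 0.67. Around invected and engrailed, 4 of 20 were raised and 8 lowered, with a median of -0.02. Prip, an aquaporin and the nearest tested gene on the invected side, went from 3.64 and 3.82 in Mock cells to 6.70 and 7.75 after Rad21 RNAi and 5.54 and 8.83 after Nipped-B RNAi, at least 9.21-fold (adjusted p = 0.00614). It too passed the filter only through knockdown arrays. The next genes on that side, CG30022 and sprt, fell by 1.48 and 1.72, and on the engrailed side Roc2, a subunit of ubiquitin ligases, rose by 0.85. Tret1-2, of the trehalose transporter family, was at 4.34 and 5.74 in Mock cells and under log2 4 on all knockdown arrays, at least 2.06-fold lower. It passed the filter only through Mock arrays.

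**Figure D2:**
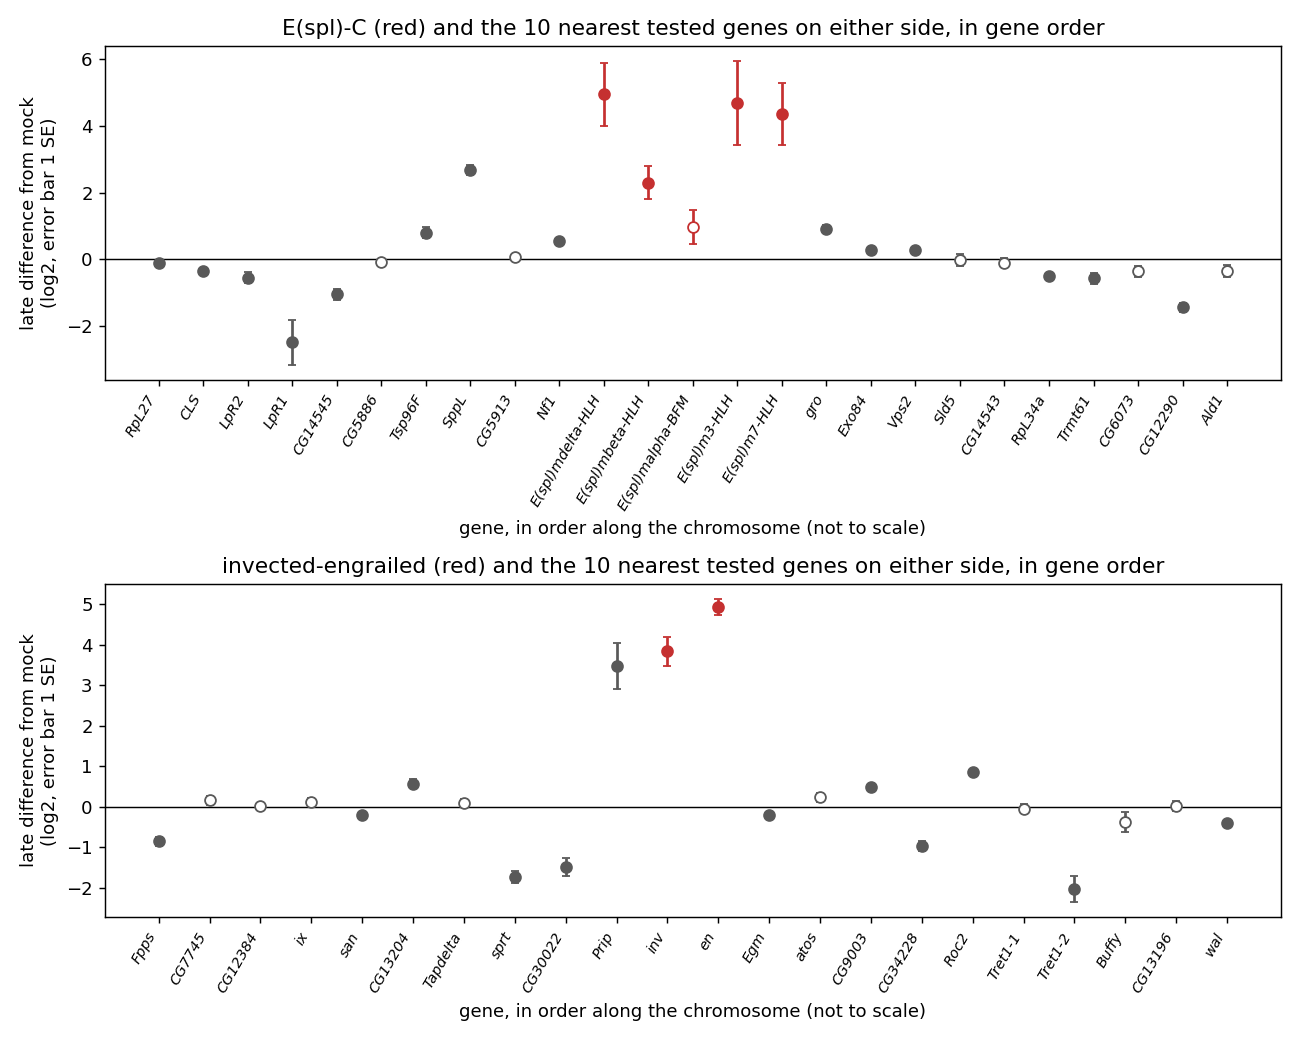
Late difference of knockdown from Mock (y axis, log2, error bar 1 standard error) for the tested genes of the E(spl)-C and of invected-engrailed (red) and the 10 nearest tested genes on either side (grey), in gene order and not to scale; filled points were called. Large and small or opposite differences lie side by side. On the deposited values, gro at 0.92 follows E(spl)m7-HLH at 4.38, and CG30022 at -1.48 lies next to Prip at 3.47. Mock values lie under log2 4 for Prip on both days and for every E(spl)-C gene shown at day 6, so their differences are not sizes.

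Of 5 genes outside both complexes where the study saw cohesin over H3K27Me3, 3 had their own probe set and rose slightly. The other genes, hth and Su(z)2, were not analysed here. Lim1, a homeobox gene, had Mock values of 11.9 and 12.5 and knockdown values between 12.4 and 13.2, a difference of 0.67 ± 0.14. The Polycomb group gene Psc rose by 0.63 ± 0.17 and jing, which encodes a zinc finger protein, by 0.35 ± 0.11. Without the Mock array of day 6, 1 of the 3 was called.

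The other leading increases came from unrelated genes. Jhbp1, a protein of the juvenile hormone binding family, rose the most of all named genes, from 4.95 and 3.88 to 10.7 and 10.3 after Rad21 RNAi and 9.39 and 9.57 after Nipped-B RNAi, 45.6-fold with values under log2 4 set to 4 (adjusted p = 0.00132). CG42342, of no function named here, went from 5.13 and 5.69 to between 7.50 and 9.91 (log2 3.48 ± 0.55), and its other 3 tested probe sets were raised by 2.00, 2.74 and 3.12. Orb2, a translational regulator needed for long-term memory in flies, had Mock values of 4.72 and 4.97 and rose to 8.75 and 9.58 after Rad21 RNAi, but to 5.57 at day 4 and 8.10 at day 6 after Nipped-B RNAi (log2 3.15 ± 0.91, adjusted p = 0.0346). It lost its call without either Mock array, with adjusted p of 0.283 and 0.111. The gap junction innexin ogre, already high in Mock cells at 9.82 and 9.92, rose to between 11.4 and 13.3. CG3777 rose 8.01-fold with values under log2 4 set to 4, CG32181 by 2.97 and CG16700 by 2.69 on the log2 scale, and CG16700 also lost its call without either Mock array. CG32181 had its knockdown values between 6.64 and 7.65 against 4.13 and 4.06 in Mock cells.

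The most lowered transcripts were led by enzymes of small molecules. Ugt317A1, a glycosyltransferase that conjugates lipophilic compounds, fell from 8.33 and 9.49 in Mock cells to between 3.49 and 3.63 on all 4 knockdown arrays, at least 30.1-fold lower (adjusted p = 0.000988). D2hgdh, a dehydrogenase of D-2-hydroxyglutarate, fell from 7.97 and 7.98 to 3.88 and 5.12 after Rad21 RNAi and 3.96 and 5.12 after Nipped-B RNAi. Its values after both knockdowns were nearly the same on each day. aubergine (aub), a PIWI protein that silences transposons through piRNAs in the germline, had Mock values of 8.66 and 9.28 and fell to 5.25 and 6.18 after Rad21 RNAi and 5.68 and 6.43 after Nipped-B RNAi, 8.50-fold (log2 -3.09 ± 0.16).

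Cyp28d1, a cytochrome P450, fell from 8.02 and 7.4 to between 3.83 and 5.71. The glutathione transferase GstE9 had Mock values of 10.6 on both days and fell to 7.36 and 7.0 after Rad21 RNAi, and to 9.54 at day 4 and 7.32 at day 6 after Nipped-B RNAi. It lost its call without the Mock array of day 6 (log2 -2.14, adjusted p = 0.165), as did the stress factor Atf3 (log2 -2.0, adjusted p = 0.151), which fell by 2.51 ± 0.53. Ugt35C1 was at 5.92 and 7.14 in Mock cells and under log2 4 on all knockdown arrays, at least 5.78-fold lower. Fmo-2, a flavin monooxygenase, fell by 2.53. Among carriers, Mct1, of the monocarboxylate family, fell by 2.48 and MME1, a mitochondrial magnesium exporter, by 2.38. LpR1 was called with all 6 arrays, but not without the Mock array of day 4 (log2 -1.39, adjusted p = 0.258). comm, which keeps the Robo receptor off the axon surface in the embryo, fell from 10.8 and 11.1 to between 7.53 and 9.24, 5.54-fold. Of 3 genes with no function named here, CG13795 fell by 2.64 and CG46339 by 2.39. CG13907 fell by at least 2.55, with values under log2 4 set to 4.

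Among signalling pathways, the share of raised genes with all 6 arrays lay above the background in most lists. These were the Notch, EGF receptor, Dpp/BMP, JAK-STAT and wingless lists and that of Myc, insulin and TOR. The share lay below the background in the hedgehog and immune response lists. Of 15 tested Notch pathway genes, 10 were raised and none lowered, with a median log2 difference of 0.40 against 0.06 over all genes. Another 6 of the list, N, Su(H) and the ligand gene Ser among them, were not analysed here. numb, an inhibitor of Notch at asymmetric divisions, rose the most of these 15, from 9.29 and 9.24 to between 10.0 and 10.5 (1.03 ± 0.12). The glycosyltransferase fringe (fng), which sets the preference of Notch for its ligands, had Mock values of 7.96 at day 4 and 6.08 at day 6 and knockdown values between 7.58 and 8.30, so most of its difference of 0.97 lay at day 6. It was not called without the Mock array of that day (0.27, adjusted p = 0.334). The ligand Delta had values of 4.62 and 4.75 in Mock cells and between 4.60 and 5.86 in knockdown cells and was not called on its brightest probe set (adjusted p = 0.161). The coactivator mam rose by 0.33 and the ubiquitin ligase gene neur by 0.50. Without the Mock array of day 6, 5 of the Notch pathway genes were called.

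Of 15 tested EGF receptor pathway genes, 13 were raised and none lowered, and between 10 and 13 were raised when any one array was left out. The secreted inhibitor argos (aos) had Mock values of 7.25 and 5.52. Its knockdown values were 8.12 and 8.72 for Rad21 and 7.69 and 8.68 for Nipped-B, 3.77-fold higher. Its log2 difference was 3.18 without the Mock array of day 4 and 0.66 without that of day 6. The intracellular inhibitor sprouty (sty) rose by 0.98 ± 0.15 and kek1, a transmembrane inhibitor, by 0.95 ± 0.08. The ligand spitz (spi) rose evenly, from 13.2 and 13.1 to between 13.9 and 14.0 (0.80 ± 0.05). The adaptor drk and the repressor aop rose by 0.67 and 0.66. Ligand, adaptor, repressor and feedback inhibitors were thus higher together.

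In the Dpp/BMP pathway 6 of 10 tested genes were raised and none lowered (3 without the Mock array of day 6). The inhibitory Smad Dad, itself a target of the pathway in flies, went from 5.48 and 4.88 to between 6.92 and 7.48, 4.07-fold (adjusted p = 0.00257). The receptor gene tkv rose by 1.11 ± 0.12 on its brightest probe set, but a second probe set of tkv fell by 2.61 ± 0.52, and tkv is 1 of 5 among 338 genes with several tested probe sets where they were called in opposite directions. The receptor wit was near background on all arrays, between 3.66 and 4.47 after knockdown against 2.48 and 2.64 in Mock cells, at least 1.17-fold. It passed the filter only through knockdown arrays, and it was not called with values under log2 4 set to 4 (adjusted p = 0.386). Of the 5 JAK-STAT genes tested 4 were raised, Stat92E by 0.47, but only 1 without the Mock array of day 6 and 2 without the Nipped-B array of that day. The wingless list held 2 raised among 4 tested genes (1 without the Mock array of day 6). In the hedgehog pathway 1 of 9 was raised and 1 lowered, and of 14 tested immune response genes 3 were raised and 1 lowered. Of 13 tested genes of Myc, insulin and TOR signalling, 6 were raised and none lowered, with a median of 0.06, and 1 was raised without the Mock array of day 6.

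Genes of both insect hormones were among the raised ones. The 4 tested genes of juvenile hormone binding, turnover and response, Jhbp1, Jhe, tai and Jheh2, were called as raised, Jhe after passing the filter only through knockdown arrays, and the other 3 stayed called without the Mock array of day 6. The esterase Jhe, which degrades the hormone, had Mock values of 3.28 and 2.63 and rose to 7.17 and 7.74 after Rad21 RNAi and 4.01 and 6.70 after Nipped-B RNAi, at least 5.30-fold (not called without the Mock array of day 6, adjusted p = 0.283). tai, a coactivator of hormone receptors, rose by 1.44 ± 0.22 and the epoxide hydrolase Jheh2 by 0.33 ± 0.05. Of 11 tested ecdysone genes, 8 were raised and 1 lowered, and 5 were raised without the Mock array of day 4 and 5 without that of day 6. One of the 8, nvd, passed the filter only through knockdown arrays. With values under log2 4 set to 4, nvd differed by 0.60 and was not called (adjusted p = 0.118). Without the Mock array of day 6 its difference was 0.27. shade (shd), the P450 that makes active ecdysone, was raised on its brightest probe set, from 6.86 and 7.68 to between 9.09 and 9.91. Its other probe set was under log2 4 in Mock cells (3.42 and 3.63) and passed the filter only through knockdown arrays. That probe set lay between 5.98 and 7.57 after knockdown, at least 6.6-fold higher. The early gene broad (br) rose by 1.01 ± 0.05 on its brightest probe set, the receptor EcR by 0.89 ± 0.20 and the nuclear receptors Hr39 and ftz-f1 by 0.81 and 0.61. EcR was not called without the Mock array of day 4 (adjusted p = 0.125) or that of day 6 (adjusted p = 0.104). ImpL2, an insulin-binding protein induced by ecdysone in flies, was the one lowered (-0.62 ± 0.15).

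Among detoxifying enzymes more genes fell than rose. Of 14 tested P450 genes, 7 were lowered and 4 raised, and of 27 tested glycosyl and glutathione transferases, 15 were lowered and 6 raised. Without the Mock array of day 6 these counts were 4 lowered and 2 raised for P450 genes, and 9 lowered and 4 raised for the transferases. Of the lowered transferases, Ugt317A1 and Ugt35C1 passed the filter only through Mock arrays. Next to Cyp28d1, the lowered P450 genes included Cyp12e1 (-1.17) and Cyp4e2 (-1.0). Cyp310a1 went the other way, from 10.4 and 9.56 in Mock cells to between 12.3 and 13, 6.33-fold, as did Cyp9c1 (1.69) and Cyp6v1 (1.31). The transferases Ugt302C1, GstE6 and GstE7 fell by 2.24, 1.57 and 1.55.

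The machinery of protein synthesis was lowered in small steps. Of 23 tested genes of nucleolar ribosome assembly, 21 were lowered and 1 raised, with a median log2 difference of -0.76 against 0.06 over all genes. Nop60B, the pseudouridine synthase of ribosomal RNA, fell from 12.3 and 11.7 to 10.6 on both days after Rad21 RNAi and to 10.2 and 10.1 after Nipped-B RNAi (-1.59 ± 0.19). Fibrillarin (Fib), the methyltransferase of ribosomal RNA, fell by 1.23 ± 0.14 and Nop56, its partner, by 1.10 ± 0.17. Between 19 and 21 genes of this list were lowered when any one knockdown array was left out, and fewer without the Mock array of day 4. Its median was -0.47 without the Mock array of day 4 and -1.02 without that of day 6.

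Of 30 tested aminoacyl-tRNA synthetases, 23 were lowered and none raised (median -0.54), and between 18 and 23 when one array was left out. The largest decreases were those of ValRS (-1.07 ± 0.12) and TrpRS (-1.01 ± 0.12). Of 26 translation factors, 18 were lowered and none raised, among them eIF6 (-0.74), eIF3m (-0.65) and eIF3b (-0.60). Of 69 tested mitochondrial ribosomal protein genes, 49 were lowered and none raised, led by mRpL28 (-0.93), and 18 and 28 were lowered without the Mock array of day 4 and of day 6. Cytosolic ribosomal protein genes fell by less. Of 32, 26 were lowered and none raised, with a median of -0.13, and 12 without either Mock array. The largest decrease there was that of RpL24-like (-1.04), which despite its symbol is an assembly factor, and among the subunits proper RpL34a fell by 0.49 and RpL17 by 0.43. After each array was centred on its median, the counts lowered were 26, 51, 24, 18 and 21 for cytosolic and mitochondrial ribosomal proteins, synthetases, translation factors and assembly genes.

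Genes of oxidative phosphorylation were lowered in 32 of 50 and raised in none (median -0.18), and 13 were lowered without the Mock array of day 4, 14 without that of day 6 and 19 without the Nipped-B array of day 6. SdhB, of the succinate dehydrogenase, fell by 0.51 ± 0.08. The mitochondrial chaperones Hsp60A and Hsc70-5 fell by 0.90 ± 0.06 and 0.71 ± 0.05. The heat shock protein list held 2 lowered and 2 raised genes among 10 tested (median 0.03). Of 12 tested genes of ATF4 and amino acid metabolism, 8 were lowered and 1 raised, led by Nmdmc, of mitochondrial folate metabolism (-1.23 ± 0.16), and JhI-21, an amino acid carrier (-0.85 ± 0.16), and 5 were lowered without the Mock array of day 6. Proteasome genes did not follow: 6 of 26 were raised, by no more than 0.24, and none without the Mock array of day 6, 3 without that of day 4 and 2 without the Nipped-B array of day 6.

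**Figure D3:**
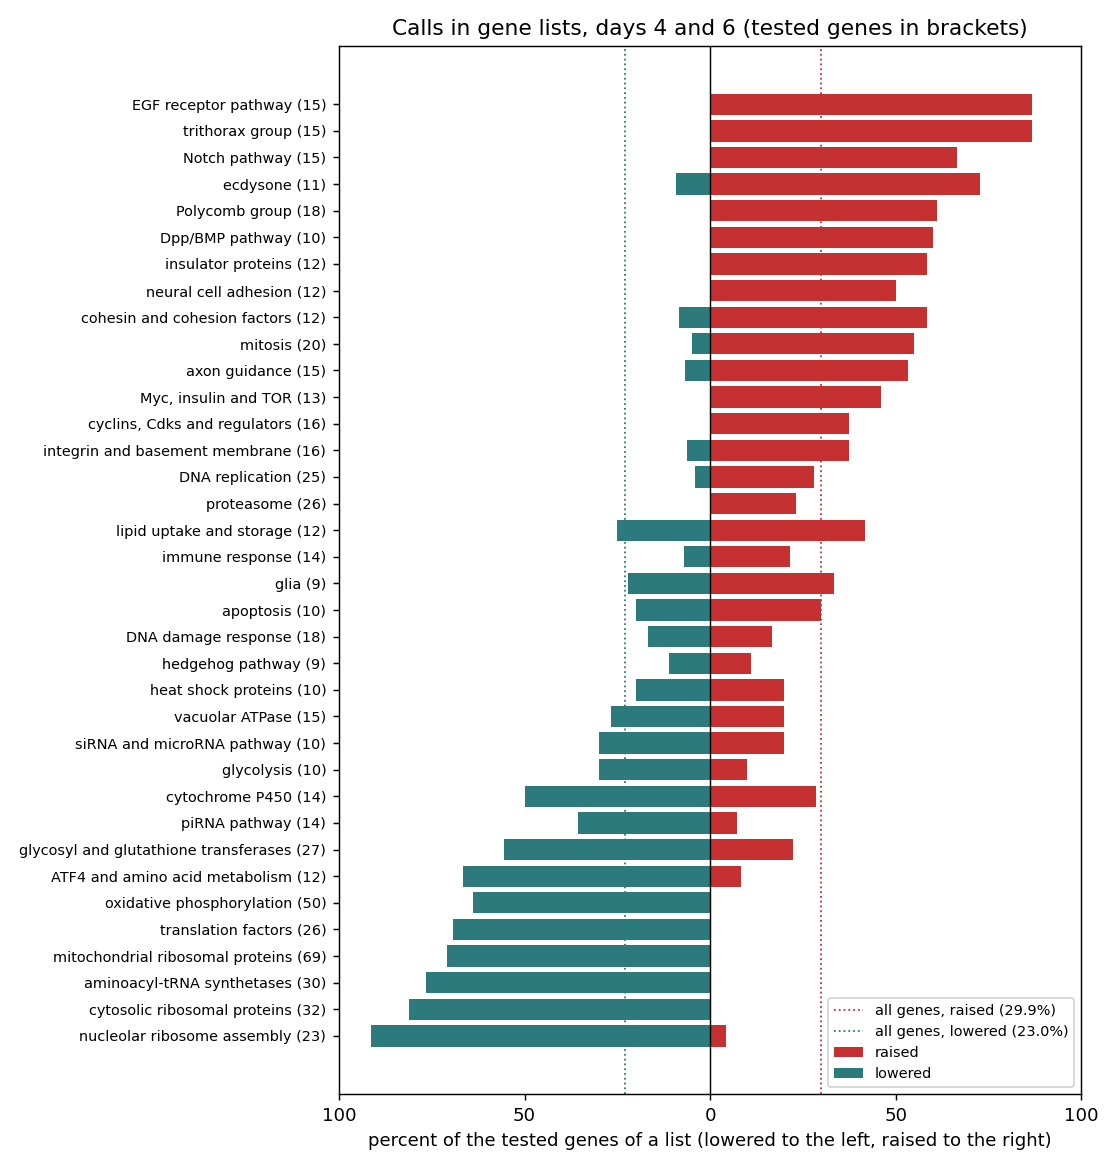
Share of the tested genes of each list (rows, number tested in brackets, lists of 9 or more) that were lowered (left) or raised (right) at days 4 and 6; dotted lines mark the shares over all genes, 23.0% lowered and 29.9% raised. The EGF receptor and trithorax group lists lie at the top with 13 of 15 raised each, and nucleolar ribosome assembly at the bottom with 21 of 23 lowered.

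Genes of chromosome structure and silencing rose slightly. Of 15 tested trithorax group genes, 13 were raised and none lowered (median 0.53). tonalli (tna) rose the most, from 10.2 and 11.4 in Mock cells to 12.1 and 12.7 after Rad21 RNAi and 11.5 and 12.6 after Nipped-B RNAi (1.45 ± 0.17), followed by the Mediator subunit gene skd (0.95). The remodelling subunits osa and brm rose by 0.60 and 0.55, the GAGA factor gene Trl by 0.59 and the ubiquitin ligase gene Bre1 by 0.53. Of 18 Polycomb group genes, 11 were raised and none lowered (median 0.27). Pc itself, which binds H3K27Me3, went from 7.68 and 7.42 to between 8.18 and 8.28 (0.67 ± 0.10). Without the Mock array of day 6, 5 trithorax group and 4 Polycomb group genes were raised, and 7 and 6 Polycomb group genes without the Rad21 and the Nipped-B array of that day. Over all genes, 24.5% were raised and 19.6% lowered without the Rad21 array of day 6. None of the 7 bithorax and Antennapedia complex genes with their own probe set passed the filter.

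Of 12 tested cohesin and cohesion genes, 7 were raised and 1 lowered. The release factor gene wapl rose by 0.61 ± 0.09, the ring genes SA1 and SMC3 by 0.53 and 0.40, the loader subunit Mau2 by 0.40 and the securin pim by 0.43. Without the Mock array of day 6, 2 of the 12 were raised, wapl and pim, and SA1, SMC3 and Mau2 were not called (adjusted p of 0.202, 0.137 and 0.311). Of 6 condensin genes, 5 were raised, with a median of 0.50 (2 without the Mock array of day 6). Of 12 insulator genes, 7 were raised and none lowered, Chro by 0.59 and Cp190 by 0.32 among them, with 2 raised without the Mock array of day 6 and 4 without the Nipped-B array of that day.

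In lists of chromosome duplication and division the Mock cells themselves changed between the days. The Mock level of the median DNA replication gene was 0.60 lower at day 6 than at day 4, that of the median condensin gene 0.41 lower and that of the median mitosis gene 0.36 lower, against 0.10 lower over all genes. Prim1, the DNA primase subunit, fell from 7.66 to 6.19 in Mock cells, whereas its knockdown values were 8.13 and 7.71 after Rad21 RNAi and 7.95 and 7.76 after Nipped-B RNAi. The median replication gene differed from Mock by 0.06 and -0.12 at day 4 and by 0.48 and 0.47 at day 6, after Rad21 and Nipped-B RNAi respectively. Of 25 replication genes 7 were raised and 1 lowered, and of 20 mitosis genes 11 were raised and 1 lowered, and without the Mock array of day 6, 1 and 2 were raised. The count of raised replication genes ran from 1 to 14 with any one array left out. Whether this change in Mock cells has a part in the late differences was not tested.

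**Figure D4:**
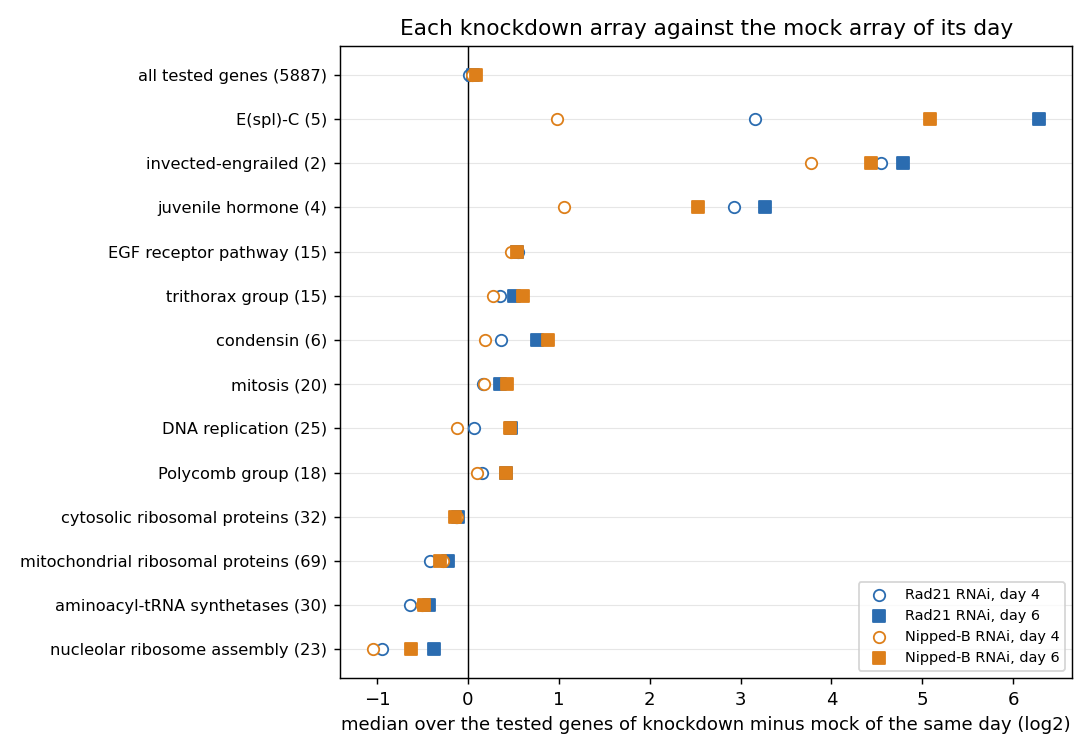
Median over the tested genes of a list (rows, number in brackets) of knockdown minus Mock of the same day (x axis, log2), for each of the 4 knockdown arrays; open circles are day 4, filled squares day 6. DNA replication genes lie at 0.06 and -0.12 at day 4 and at 0.48 and 0.47 at day 6, while aminoacyl-tRNA synthetases lie between -0.64 and -0.43 in all 4. Medians are of the deposited values, which for the E(spl)-C lie under log2 4 in Mock cells at day 6.

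Genes of neural cell adhesion and axon guidance were raised more often than lowered. Of 12 tested genes of neural cell adhesion, 6 were raised and none lowered. Neurotactin (Nrt) went from 8.51 and 9.01 to 10.4 and 10.6 after Rad21 RNAi and 9.61 and 10.4 after Nipped-B RNAi (1.49 ± 0.21). Its secreted ligand amalgam (Ama), under log2 4 in Mock cells at day 4, rose by at least 1.43. Fasciclin Fas1 rose by 1.2 ± 0.12 and N-cadherin (CadN) by 1.06 ± 0.15. Of 15 axon guidance genes, 8 were raised and comm alone lowered, with 5 raised without the Mock array of day 6 and 3 lowered without the Nipped-B array of day 6. The receptors Lar, PlexB and Eph rose by 0.80, 0.78 and 0.66, and Ephrin, the ligand of Eph, by 0.70. All 7 tested neural translational regulators were raised, but 1 without the Mock array of day 4, 3 without that of day 6 and 4 without the Nipped-B array of day 6. Besides orb2, pumilio (pum) rose by 0.77. Syp and Imp were far higher at day 6 than at day 4 in all treatments: Syp lay at 10.6 and 12.8 in Mock cells, 11.8 and 13.2 after Rad21 RNAi and 11.1 and 13.4 after Nipped-B RNAi.

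Of 16 tested integrin and basement membrane genes, 6 were raised and 1 lowered (3 raised without the Mock array of day 6). The integrin subunit gene mew rose from 5.97 and 6.26 to between 7.97 and 9.06, 5.51-fold, and the integrin subunit gene scb fell by 0.91 ± 0.11. The glial gene wrapper was at 5.07 and 5.17 in Mock cells and under log2 4 on all knockdown arrays, at least 2.17-fold lower. It passed the filter only through Mock arrays. Gli fell by 1.72 ± 0.23, while 3 of the 9 tested glial genes were raised. The calcium channel gene cac was raised by 0.76 on the deposited values. With values under log2 4 set to 4 it differed by 0.46 and was not called (adjusted p = 0.174). Of the 3 neuronal markers tested, cac and elav (0.45) were raised on the deposited values, and cpx, which clamps synaptic vesicle release, fell by 0.66. None of them was raised without either Mock array: elav had an adjusted p of 0.493 without that of day 4 and 0.125 without that of day 6, and cpx was not called without the latter (adjusted p = 0.11). In the piRNA pathway 5 of 14 tested genes were lowered and 1 raised, with 5 or 6 lowered and between 0 and 4 raised when any one array was left out. After aub, the largest decrease was that of cutoff (cuff), from 6.00 and 5.78 to between 3.58 and 4.05, and zuc and spn-E, also piRNA factors, fell by 0.94 and 0.76.

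Few probe sets separated Rad21 from Nipped-B RNAi at days 4 and 6, with 2 arrays each. The standard deviation of the difference between their arrays over the tested probe sets was 0.35 at day 4 and 0.23 at day 6, against 0.43 between the Mock arrays of the 2 days. Tested against each other, 5 of 7288 probe sets were called (0.0686%), and 493 had an unadjusted p under 0.05. Idgf6, a chitinase-like growth factor, lay at 3.62 and 3.66 after Rad21 RNAi, as in Mock cells (3.58 and 3.52), and at 6.32 and 6.67 after Nipped-B RNAi, which is at least 2.49 log2 units lower after Rad21 RNAi (adjusted p = 0.0212). It passed the filter only through the Nipped-B arrays. mthl2, a gene of the methuselah receptor family, was higher after Rad21 RNAi (7.05 and 7.94) than after Nipped-B RNAi (5.28 and 5.85), with Mock values of 5.60 and 6.70. emc, a helix-loop-helix inhibitor, was 0.85 higher after Rad21 RNAi, with Mock values between both. The other 2 probe sets carry no gene name: 1630884_at was at 8.54 and 9.27 after Rad21 RNAi and between 11.2 and 11.5 on the other 4 arrays, and 1627511_at was lower after Nipped-B RNAi (8.14 and 9.52) than on the other arrays of its days. A missing call does not show that both knockdowns act alike: E(spl)m7-HLH was 2.03 higher and orb2 2.33 higher after Rad21 RNAi, with adjusted p of 0.677 and 0.365.

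No probe set was called for a knockdown effect that differed between day 6 and day 4 (limma, 383 at an unadjusted p under 0.05), in a design with 1 Mock array per day. With values under log2 4 set to 4, the effect on E(spl)m3-HLH was 4.41 log2 units larger at day 6, that on E(spl)mdelta-HLH 2.39, that on E(spl)m7-HLH 1.94 and that on aos 2.52. For engrailed the gap was 0.41.

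Part of the late response differed from that at day 3. The late effect differed from the day 3 effect for 254 of 7288 probe sets (3.49%), of which 121 were higher (1.66%) and 133 lower (1.82%). Of the former, 72 were above Mock at both times and further above it late, and 49 had been below Mock at day 3. Of the latter, 81 were below Mock at both times, 49 had been above Mock at day 3, and 3 were above it at both. The amount of dsRNA was 40 µg at day 3 and 10 µg later, so time and dose cannot be told apart. The 254 calls became 72 with a plain linear model, and their number moved with each array that was left out.

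CG10621, of no function named here, was at background in Mock cells (2.29 and 2.28) and differed by 0.01 at day 3, and lay at 5.88 and 6.39 after Rad21 RNAi and 5.53 and 7.08 after Nipped-B RNAi at days 4 and 6, at least 4.66-fold higher, having passed the filter only through knockdown arrays. The effect on CG42342 grew from 0.38 to 3.48 and that on Jhbp1 from 2.76 to 5.57, and engrailed went from 3.44 to 4.94 (adjusted p = 0.091). Some effects turned: jdp, named for the J domain of its protein, differed by -1.2 at day 3 and 1.29 late, smal by -0.78 and 1.70, and fng by -1.25 and 0.97. Delta differed by -1.42 at day 3 and by 0.47 late, where it was not called. Among the genes lower late, peg, eater, ChLD3 and HP6 were under log2 4 on all 4 knockdown arrays of days 4 and 6. They passed the filter only through Mock arrays. peg fell from 6.12 and 6.61 in Mock cells to between 2.15 and 2.37, at least 5.16-fold, after a difference of -0.80 at day 3. eater, a phagocytic receptor of haemocytes, and ChLD3, of the chitin deacetylase family, differed by -0.71 and -0.25 at day 3 and were at least 4.80-fold and 4.79-fold lower late. Glt, a secreted glycoprotein, was 1.69 above Mock at day 3 and 0.76 below it late. P5cr-2, of proline synthesis, differed by 0.49 at day 3 and -1.92 late, and HP6, a heterochromatin protein also known as umbrea, by -0.23 at day 3 and was at least 4.63-fold lower late.

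**Figure D5:**
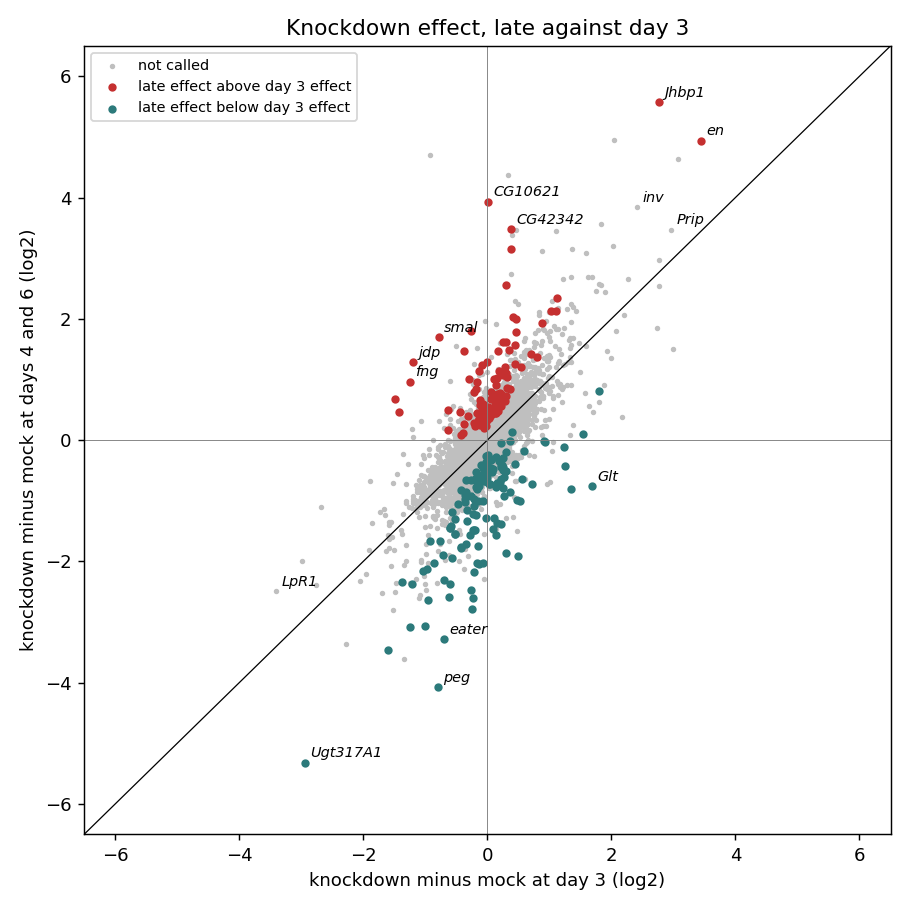
Knockdown minus Mock at day 3 (x axis) against days 4 and 6 (y axis), both log2, for 7288 probe sets; coloured points differed between both times and the diagonal marks equal effects. CG10621 lies at 0.01 and 3.93, en at 3.44 and 4.94, and peg at -0.80 and -4.07, on the deposited values, which for CG10621 and peg lie at background in one treatment.

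Calls were spread over all chromosome arms. On chromosome 4, 19 of 37 tested genes were raised (51.4%) and 4 lowered, with a median log2 difference of 0.27. On the other arms the share raised ran from 24.2% on 3R and 25.4% on X to 34.3% on 2L and 34.4% on 3L. On the deposited values, changes of 2-fold or more were commonest among weakly expressed probe sets. Of 631 with a mean under log2 6, 43 were raised (6.81%) and 64 lowered (10.1%) that far. Of 828 with a mean of log2 12 or more, 10 (1.21%) and 5 (0.604%) were. The filter sets part of this contrast, because it admits weak probe sets that reach log2 4 in one group only. Of all raised probe sets, 35 were under log2 4 on both Mock arrays, and of all lowered ones, 23 on all 4 knockdown arrays.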

How the data were processed

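Total RNA of BG3 cells was hybridised by the authors to Affymetrix Drosophila Genome 2.0 arrays. The deposited log2 values had been background-corrected and normalised by the authors with GCRMA (version not given in the sources used here), which pulls unexpressed probe sets to a common low level, so values under log2 4 were treated as background and folds across that limit are given as "at least". Of 18952 probe sets, 183 controls were left out. Genes were named from the platform annotation, updated through RefSeq Release 6 for names, chromosome arm and gene order: of the 18769 others, 13647 had 1 gene, 402 several and 4720 none.

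Linear models on the log2 values were fitted with limma 3.58.1 (R 4.3.3, empirical Bayes with a trend) over 7288 probe sets, with p-values adjusted by Benjamini and Hochberg and called at 0.1 or less, the threshold in the study's methods. The late response had the day as a block and 3 residual degrees of freedom. Rad21 against Nipped-B, the effect at day 6 against day 4, and the late against the day 3 effect (all 12 arrays) were fitted in the same way. The labels give the arrays of day 4 one replicate number and those of day 6 another, so the day pairs them. At day 3 each treatment has replicates 1 and 2. The fit on all 12 arrays had only the day as block and did not pair the day 3 arrays by replicate number. The labels call the arrays biological replicates, and p-values measure only the spread between these arrays, whose number limits the precision. Of several probe sets of a gene, the brightest on average is given, except where a probe set itself was ranked. Named genes are the 15 most raised and 15 most lowered with the same sign in 4 of 4 pairs, the 6 largest each way in the other comparisons, the genes the study names, and examples from gene lists by size. Other genes beside the complexes were picked by size after their values were seen. The gene lists and members were chosen with earlier results of these data known, and gene aliases were completed after values could be seen. Fits were tested on simulated data. Python 3.11.15 with pandas 2.3.3, numpy 2.4.6 and matplotlib 3.10.9 was used for summaries and plots. Alternatives covered the filter, the floor, the variance model, the block, scaling, the threshold and each array in turn. Primer sequences came from the study's supplementary material.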

Additional observations from a re-analysis of the deposited data

Results flagged for a closer look

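In 7 of 168 genes looked at, Dixon's test set 1 of the 4 pairs of a knockdown array with its Mock array apart. Chance gives about 1 in 20. The pair was Nipped-B at day 4 for 6 of the 7 genes. There the log2 difference was -1.044 for GstE9 (others -3.63 to -3.23), -1.907 for MME1 (others -2.559 to -2.492), -1.075 for GstE6 (others -1.792 to -1.693), -0.697 for TrpRS (others -1.123 to -1.105), -0.484 for eIF3m (others -0.718 to -0.704) and 0.365 for Asx (others 0.651 to 0.672). For Prosalpha3 the pair was Rad21 at day 4, at 0.11 (others 0.255 to 0.281).

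In 3 genes Rad21 and Nipped-B RNAi differed by limma's test of the difference: mthl2 (1.928) and emc (0.848) were higher and Idgf6 (-2.854) was lower after Rad21 RNAi. For Idgf6, under log2 4 after Rad21 RNAi, the difference is -2.49 with values under log2 4 set to 4.

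In 35 genes the late effect differed from the day 3 effect by the test of that difference, where the dsRNA dose also differed. The late minus the day 3 effect was above 0 for CG10621 (3.919), CG42342 (3.095), Jhbp1 (2.804), jdp (2.486), smal (2.478), fng (2.212), Delta (1.893), Dad (1.616), en (1.499), Nrt (1.136), nkd (1.134), Prim1 (1.133), tkv (0.807), Dcp-1 (0.536) and Trl (0.423). It was below 0 for peg (-3.273), eater (-2.583), ChLD3 (-2.54), Glt (-2.453), P5cr-2 (-2.41), HP6 (-2.386), Ugt317A1 (-2.375), Mct1 (-2.222), Cyp28d1 (-2.056), CG13907 (-1.967), Tret1-2 (-1.963), D2hgdh (-1.847), aub (-1.841), CG13795 (-1.676), sprt (-1.382), CG30022 (-1.269), MME1 (-1.163), Cyp4e2 (-0.844), Non1 (-0.616) and eIF3m (-0.383). These are differences of the deposited values, and where values lie under log2 4 they are not sizes. With such values set to 4, the difference was 2.22 for CG10621, 2.75 for Jhbp1, -2.37 for peg, -1.56 for eater, -2.26 for ChLD3, -2.37 for P5cr-2, -2.21 for HP6, -1.96 for Ugt317A1, -2.01 for Cyp28d1, -1.92 for CG13907, -1.04 for Tret1-2 and -1.81 for D2hgdh.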

How the results depend on the processing

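The count of raised probe sets was 2220, and 1460 without the replicate block. Leaving out 1 array gave between 1020 (without the Mock array of day 6) and 2369 raised and between 992 and 1742 lowered, with 992 and 993 lowered without the Mock array of day 4 or of day 6. All 3841 calls kept their sign in each of those 6 fits, and between 1950 and 3672 were called again in the same direction. The other alternatives stayed within 1.5 times of either count. The 5 calls between Rad21 and Nipped-B became 0 with no filter, with a plain linear model or without the replicate block, and between 1 and 148 with 1 array left out: 61 and 66 without the Mock array of day 4 or 6, 1 without either Rad21 array and 148 without the Nipped-B array of day 6. The 0 calls for day 6 against day 4 became 390 with no filter. That effect could not be fitted without a Mock array. The 254 calls for late against day 3 became 134 with no filter, 72 with a plain linear model and 82 at an adjusted p of at most 0.05, and each of the 12 arrays moved it, from 18 (without the Mock array of day 6) to 936 (without the Nipped-B array of day 4). Of 168 genes followed, 107 kept their call under every alternative run and none changed sign where called. The plain model ended 36 calls and the fit without the replicate block 24. Calls were also lost when either Mock array was left out. The causes were not tested. Counts of gene lists without each array and with centred arrays, and differences with values under log2 4 set to 4 outside the late comparison, were alternatives chosen after seeing the data.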
